A study of Mus musculus with 15 samples.

Results

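Ribosome-protected fragments of 10 genes of polyamine metabolism were followed over the day in mouse liver. The genes were chosen by symbol: Odc1, Amd1, Azin1, Oaz1, Oaz2, Sat1, Srm, Sms, Smox and Paox. All RefSeq transcripts with these symbols were taken, which gave 19 of the 28167 transcripts counted: 9 of Smox, 2 of Azin1 and 1 of each other gene. Each gene is described by its transcript with the most reads. The animals were wild-type C57BL/6N males, 8 to 10 weeks old, kept in light-dark cycles and then moved to constant darkness. The livers were taken whole, from 2 mice at each of 7 circadian times (CT), CT0 to CT24 in steps of 4 h, and CT24 was fitted at the phase of CT0. No group received a drug or carried an altered allele, and the comparison is between times. A footprint count depends on both the amount of an mRNA and its translation, RNA amounts were not analysed here, and in whole liver fewer cells of a type and less RNA per cell cannot be told apart.

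Polyamines (putrescine, spermidine and spermine) are small cations that bind RNA and are needed for growth. Ornithine decarboxylase (Odc1) makes putrescine, S-adenosylmethionine decarboxylase (Amd1) supplies the aminopropyl donor, and spermidine synthase (Srm) and spermine synthase (Sms) use that donor to build the longer polyamines. Antizymes (Oaz1, Oaz2) bind ornithine decarboxylase and send it to the proteasome, and the antizyme inhibitor (Azin1) binds antizyme in its place. The acetyltransferase Sat1, the acetylpolyamine oxidase Paox and spermine oxidase Smox work in breakdown. The pathway is known for control at translation: an antizyme mRNA is read in full only when ribosomes shift frame at an early stop codon, and upstream open reading frames (uORFs) of Amd1 and Azin1 respond to polyamines.

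Total counts per library ran from 40593197 to 90458783, and the 10 main transcripts together had 3059 to 7141 reads per library. Levels are given as CPM, a gene's reads relative to all reads of the library, scaled by TMM, a factor per library that aligns most transcripts, and TMM factors ran from 0.736 to 1.46. All 10 hepatocyte markers checked were present, with a summed level of 35793 to 50199 CPM. Summed markers of other cells ran from 90.1 to 157 CPM for Kupffer cells, 99.9 to 160 for endothelial, 100.01 to 158 for stellate, 11.03 to 24.4 for cholangiocyte, 54.9 to 115 for erythroid and 2.32 to 5.79 for T and B cells. Endothelial, stellate and cholangiocyte sums were lowest in CT16 replicate 2, where Srm was highest, and Kupffer cell, endothelial and cholangiocyte sums were highest in CT0 replicate 1, where Odc1 was highest. Their part in the results was not tested. A list of 10 pancreatic acinar markers, 9 of them in the files, summed to 3737 CPM in CT20 replicate 2, 76.6 in CT24 replicate 2, 38.6 in CT12 replicate 2 and 2.55 to 9.83 in the other libraries. Even numbers made up 100% of the counts above 0 in the second CT16 library and 48.9% to 50.4% in the others. Each count of that library is thus a multiple of 2, and how this came about is not stated, so its raw counts may be too high.

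The sequences shown come from genes that the pathway's translational control is known for or from 5′UTRs with many reads here. They were read from GRCm38.p6 (mm10) with the RefSeq annotation and are written 5′ to 3′ on the strand of the gene. The search for uORFs covered ATG starts only. Whether a printed Azin1 uORF is the one that responds to polyamines was not tested. Counts were available per region and not per uORF, and no read can be placed on a printed uORF. In the first 4 lines the capitals mark the start and stop codons of uORFs. Amd1 lies on the minus strand at chr10:40287458-40302188 in 8 exons, and its uORF at chr10:40302155-40302175 starts at nt 14 of the mRNA. Azin1 lies on the minus strand at chr15:38487430-38519266. Its main transcript has 6 ATGs with an in-frame stop inside the 5′UTR, and the 2 printed are at chr15:38514482-38514505, in exon 2, and at chr15:38501507-38501536, in exon 4 and ending 1 nt before the CDS. Odc1 lies on the plus strand at chr12:17544873-17551502 and has 2 uORFs, the first of which is printed, at chr12:17544921-17544947 in exon 1.
Amd1 uORF: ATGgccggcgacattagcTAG
Azin1 second uORF: ATGatagggggttccatctccTAA
Azin1 sixth uORF: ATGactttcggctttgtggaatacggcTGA
Odc1 first uORF: ATGacgacgtgctcggcgtataagTAG

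The antizyme genes are shown for the stop codon, in capitals, at which ribosomes shift frame. Oaz1 lies on the plus strand at chr10:80826656-80829290 and Oaz2 on the plus strand at chr9:65676548-65690300. The windows are at chr10:80828280-80828309 and chr9:65686257-65686286. In Oaz1 the stop came after 68 codons, so that 29.8% of the annotated CDS lies before it, and in Oaz2 after 32 codons, or 16.8%. The annotation leaves out the first base of the stop, at 80828295 in Oaz1 and 65686272 in Oaz2.
Oaz1 shift site: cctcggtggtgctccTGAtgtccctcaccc
Oaz2 shift site: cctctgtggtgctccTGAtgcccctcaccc
Reads were counted over the CDS as a whole, so reads before and after the shift cannot be told apart in either gene. No uORF that starts with ATG was found in the 5′UTRs of Oaz1, Oaz2, Srm, Smox and Paox, and other start codons were not searched.

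Reads of the 10 genes can be shared with copies elsewhere in the genome, and the study's methods state that only uniquely aligned reads entered the density profiles, without saying whether the deposited counts were made the same way. Each 28-nt window of a CDS was therefore searched for an exact copy at another place. Copies were found for 100% of the windows of Amd1 and Sms, 95.9% of Oaz1, 86.9% of Paox, 85.9% of Odc1, 72.9% of Oaz2, 46.5% of Sat1 and 20.8% of Srm, and for none of Azin1 and Smox. Amd1 and Amd2, its single-exon copy at chr10:35708691-35711891, are identical at 1004 of 1005 CDS positions and had the same counts in every library, so Amd1 values stand for both loci. The CDS of Amd1 had 798 reads and that of Sms 195, although every 28-nt window of either has a copy elsewhere. Longer windows were not searched. Levels of the other genes with many copied windows are uncertain for the same reason.

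Of the 10 genes, 4 passed the rhythm test: Srm, Odc1, Azin1 and Amd1 (edgeR quasi-likelihood test of a 24 h cosine, adjusted p below 0.05, 14 libraries). Over all 17299 transcripts tested, 11.3% passed. The median peak-to-trough difference of the 10 genes was 0.53 on the log2 scale, and it was 0.45 over all transcripts tested. The 4 genes peaked between CT12.8 and CT19.6, a range that held 33.9% of the 1321 genes past the test. Of the synthesis genes Sms did not pass with total reads (adjusted p = 0.740, edgeR), nor did the antizyme genes Oaz1 and Oaz2 and the breakdown genes Sat1, Smox and Paox, and Sat1 passed with CDS reads alone. Whether these groups of genes differ was not tested.

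Azin1, which spares ornithine decarboxylase by binding antizyme, had the earliest fitted peak of these 4 genes with TMM scaling. Its total reads were 14.7 and 19.3 CPM at CT0, 16.4 and 16.7 at CT4, 22.3 and 19.8 at CT8, 22.0 and 26.1 at CT12, 20.9 and 19.4 at CT16, 17.6 and 22.6 at CT20, and 13.9 and 13.4 at CT24. The CT24 pair lay below all other libraries, while the CT12 pair overlapped with others. The fitted difference from trough to peak was 0.60 ± 0.13 (SE, n = 14) on the log2 scale, or 1.51-fold, with a peak at CT12.8 ± 0.96 (SE) and an edgeR adjusted p of 0.0231. With libraries scaled by total count the difference was 0.35, the peak CT16.1, after the CT15.4 of Amd1 under that scaling, and the adjusted p 0.568, with transcripts of a Mup symbol left out of that total it was 0.44 and 0.171, and with time as a factor the edgeR adjusted p was 0.113. The edgeR adjusted p was 0.0884 without CT12 replicate 2, 0.0581 without CT24 replicate 1, 0.0534 without CT0 replicate 1 and 0.0528 without CT24 replicate 2. It was also above the threshold without both libraries of CT4 (0.0712), CT8 (0.0554), CT12 (0.171) or CT24 (0.131).

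Amd1, which commits S-adenosylmethionine to polyamine synthesis, had the largest fitted change of the 4 and the fewest reads, 14 to 180 per library. Levels were 0.44 and 0.26 CPM at CT0, 0.22 and 0.63 at CT4, 0.51 and 0.74 at CT8, 2.22 and 1.84 at CT12, 1.39 and 1.39 at CT16, 0.79 and 0.94 at CT20, and 0.47 and 1.34 at CT24. Both CT12 libraries were above the 12 others. The mean at CT12 was 2.03 ± 0.27 (SD, n = 2) against 0.35 ± 0.13 at CT0, a ratio of 5.84. The cosine gave 2.13 ± 0.51 (SE) from trough to peak on the log2 scale, a peak at CT14.6 ± 0.93 and an edgeR adjusted p of 0.0285. This call was lost without CT12 replicate 1 (0.0807), CT12 replicate 2 (0.0738), CT4 replicate 1 (0.0620), CT0 replicate 1 (0.0552), CT24 replicate 1 (0.0550) or CT0 replicate 2 (0.0506), and the adjusted p was 0.00147 without CT24 replicate 2. It was lost too without both libraries of CT0 (0.0949), CT4 (0.0968), CT8 (0.0533), CT12 (0.221) or CT16 (0.0691), and with time as a factor (0.119).

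Srm, spermidine synthase, lies on the plus strand at chr4:148591513-148594619. Its reads were 15.0 and 9.54 CPM at CT0, 5.22 and 8.42 at CT4, 7.24 and 9.06 at CT8, 11.5 and 18.99 at CT12, 17.0 and 25.5 at CT16, 16.3 and 11.2 at CT20, and 11.2 and 10.9 at CT24. The CT16 pair was above 11 of the other 12 libraries, all but CT12 replicate 2. The mean at CT16 was 21.2 ± 5.96 CPM (SD, n = 2) against 6.82 ± 2.26 at CT4, or 3.11-fold. The fitted difference was 1.44 ± 0.30 (SE) on the log2 scale with a peak at CT16.8 ± 0.71 and an edgeR adjusted p of 0.00197. Srm kept its call when any library or any time was left out, with an adjusted p of at most 0.0390.

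Odc1, the first enzyme of the pathway, had 8.52 and 5.39 CPM at CT0, 2.63 and 3.00 at CT4, 2.81 and 3.11 at CT8, 3.49 and 4.64 at CT12, 4.97 and 6.53 at CT16, 5.23 and 5.97 at CT20, and 6.30 and 4.80 at CT24. All 4 libraries of CT4 and CT8 were below the 10 others. The mean was 6.95 ± 2.21 CPM (SD, n = 2) at CT0, 2.82 ± 0.26 at CT4 and 5.75 ± 1.10 at CT16. The cosine had a trough-to-peak difference of 1.22 ± 0.26 (SE) on the log2 scale, a peak at CT19.6 ± 0.74 and an edgeR adjusted p of 0.00688. Every fit with 1 library left out kept the call, with adjusted p from 0.00391 to 0.0281, and the fit without both CT8 libraries lost it (0.0876).

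The 4 calls were repeated without the libraries that stood apart. Without CT20 replicate 2 the edgeR adjusted p was 0.000451 for Srm, 0.00973 for Odc1, 0.00854 for Azin1 and 0.0342 for Amd1. Without CT16 replicate 2 it was 0.0165, 0.0144, 0.0215 and 0.0494 in the same order. Of the other libraries with raised acinar markers, leaving out CT24 replicate 2 gave 0.00322 for Srm, 0.00816 for Odc1, 0.0528 for Azin1 and 0.00147 for Amd1. Leaving out CT12 replicate 2 gave 0.00282 for Srm, 0.00796 for Odc1, 0.0884 for Azin1 and 0.0738 for Amd1, so that Azin1 lost its call in both fits and Amd1 in the latter. The fitted difference in these fits was 0.54 for Azin1 in both, against 0.60 with all libraries, and 2.03 for Amd1, against 2.13.

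**Figure D1:**
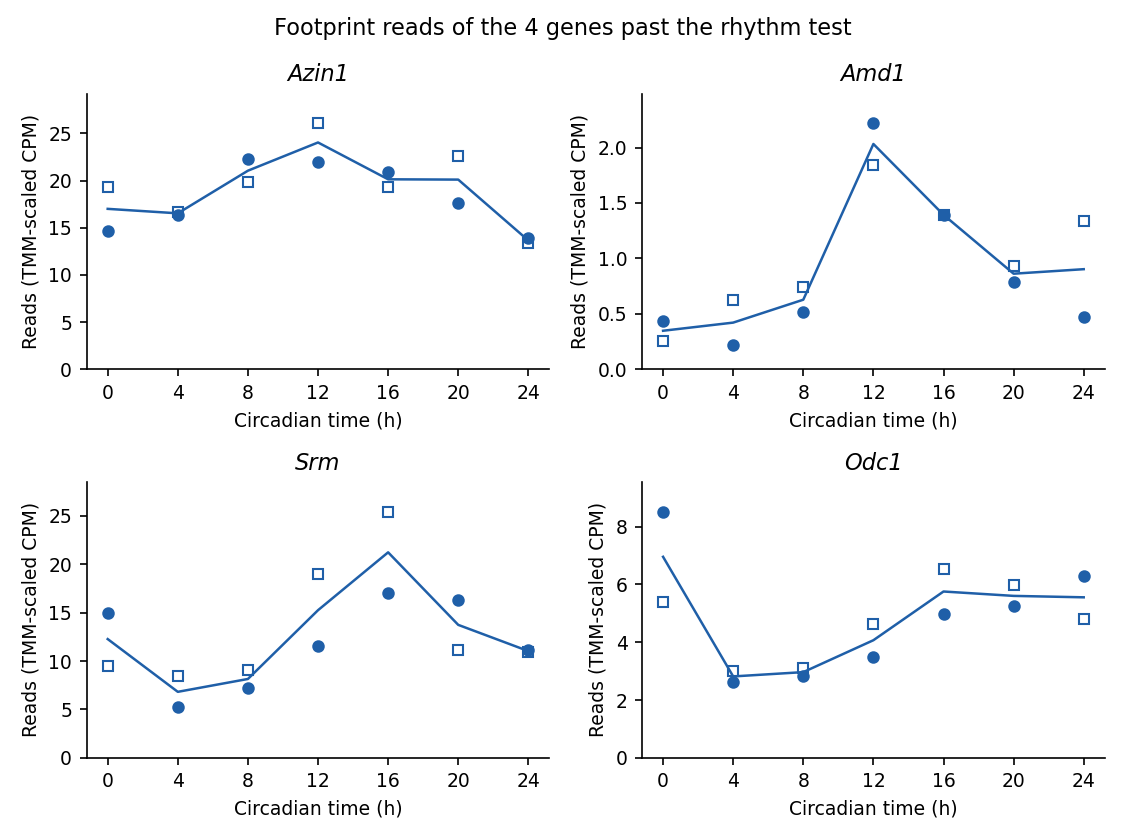
Reads of Azin1, Amd1, Srm and Odc1 (vertical axes, TMM-scaled CPM over 5′UTR, CDS and 3′UTR, each from 0) against circadian time in h. Filled circles are replicate 1, open squares replicate 2 and lines the mean of both. Azin1 and Amd1 are highest at CT12, Srm is highest at CT16, and Odc1 is lowest at CT4 and CT8.

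The antizymes did not pass. Oaz1, the antizyme with the most reads, ranged from 18.1 CPM in CT24 replicate 1 to 45.5 in CT4 replicate 1, with a median of 29.4. Libraries of one time could differ as much as libraries of different times: 40.3 and 18.7 CPM at CT8, 38.3 and 18.6 at CT16. The fitted difference was 0.35 ± 0.36 (SE) on the log2 scale with an edgeR adjusted p of 0.632. Leaving out 1 library moved the difference, to 0.71 without CT8 replicate 2 and 0.20 without CT4 replicate 1, and Oaz1 passed in none of these fits. Oaz2 ranged from 2.09 to 4.15 CPM with a median of 3.32, and its fitted difference was 0.24 ± 0.23 (SE, adjusted p = 0.764, edgeR). With total count scaling the Oaz2 difference was 0.58, with a peak at CT23.96 in place of CT3.2 and an edgeR adjusted p of 0.402. It was 0.44 without CT16 replicate 1 and 0.15 without CT4 replicate 1.

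Sat1, whose acetylation step marks polyamines for export or oxidation, lies on the minus strand at chrX:155213126-155216449. Its total reads ranged from 4.85 to 9.75 CPM, and the fitted difference of 0.46 ± 0.20 (SE) on the log2 scale did not pass (edgeR adjusted p = 0.303). CDS reads alone gave another answer. They were 2.97 and 3.49 CPM at CT0, 4.29 and 4.89 at CT4, 5.25 and 5.31 at CT8, 5.37 and 4.33 at CT12, 4.52 and 3.54 at CT16, 3.37 and 3.24 at CT20, and 3.53 and 4.43 at CT24. Both CT8 libraries were above all others but CT12 replicate 1. The cosine on CDS reads had a difference of 0.69 ± 0.13 (SE), a peak at CT8.7 and an edgeR adjusted p of 0.0275, where 1833 of 17023 transcripts, 10.8%, passed. This fit took library sizes and TMM factors from CDS reads. With CDS reads no other scaling was tried and no library was left out. In total reads with total count scaling, Sat1 had a difference of 0.22, a peak at CT3.4 and an edgeR adjusted p of 0.870. With CDS reads the 4 genes above passed too, so that 5 of 10 did.

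Paox, at chr7:140125685-140134334 on the plus strand, had 1.21 to 2.28 CPM and a fitted difference of 0.15 ± 0.22 (SE, edgeR adjusted p = 0.914). Smox, at chr2:131491862-131525183 on the plus strand, had 11 to 44 reads per library and an adjusted p of 0.966, and its other 8 transcripts gave 0.747 to 0.992. Sms, at chrX:157443851-157492287 on the minus strand, had 6 to 29 reads per library. Its levels at CT20, 0.60 and 0.48 CPM, were above the 12 other libraries, and the cosine gave 0.67 ± 0.59 (SE) with an adjusted p of 0.740. The few reads limit the test for Sms and Smox, and which size of change could have been seen at such depth was not tested. JTK_CYCLE, a rank test that the study also used, was run here with P adjusted over the lags tried for a transcript and not over transcripts, unlike the edgeR values. On total-count CPM, 1 of the 10 genes passed, Srm (adjusted P = 0.0297), against 13.6% of all transcripts, while Odc1 and Amd1 were each at 0.0636 and Azin1 at 1. The same test on TMM-scaled CPM called Srm, Odc1, Azin1 and Amd1 (0.00283, 0.0439, 0.0126 and 0.0126), against 13.9%.

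**Figure D2:**
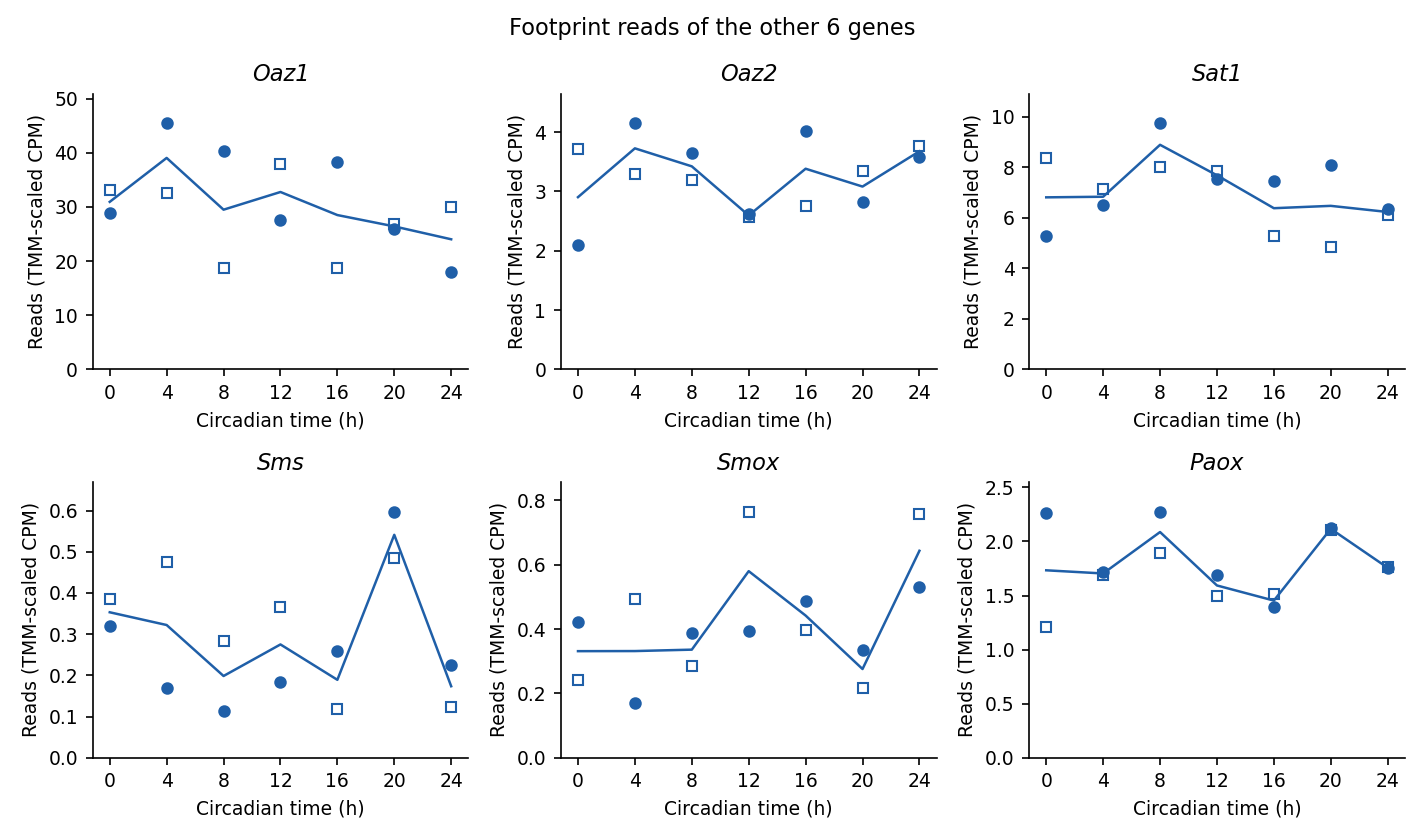
Reads of Oaz1, Oaz2, Sat1, Sms, Smox and Paox (vertical axes, TMM-scaled CPM, each from 0) against circadian time in h, with filled circles for replicate 1, open squares for replicate 2 and lines for the mean. Oaz1 differs most within a pair at CT8, with 40.3 and 18.7 CPM, and none of the 6 genes passed the cosine test on total reads.

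CT0 and CT24 are a day apart and were compared by their values. On the log2 scale CT24 minus CT0 was -0.30 for Odc1, -0.12 for Srm, -0.09 for Sat1, 0.09 for Paox, -0.41 for Oaz1 and 0.40 for Oaz2, each smaller than the gap within one of its pairs, and the pairs overlapped. For Amd1 it was 1.199 and for Smox 0.95, with both CT24 libraries above both CT0 libraries. Azin1 differed by -0.30 and Sms by -1.01, with the CT24 pair below the CT0 pair. The difference of Amd1 was still smaller than the gap of its CT24 pair, 1.48, and that of Azin1 smaller than the gap of its CT0 pair, 0.40. The cosine treats these pairs as one phase, so their gap enters its residual.

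Reads per length of CDS ranked the genes over the 14 libraries (RPKM, TMM-scaled, mean ± SD). Oaz1 was highest with 42.9 ± 12.0, above 92.1% of 11554 genes with a mean of at least 10 CDS reads. Srm followed with 13.6 ± 5.83, then Sat1 with 8.01 ± 1.58, Azin1 with 5.72 ± 1.49, Oaz2 with 4.96 ± 0.98 and Odc1 with 3.08 ± 1.23. Paox had 1.15 ± 0.21, Amd1 0.92 ± 0.60, Smox 0.23 ± 0.10 and Sms 0.21 ± 0.09. Oaz1 was thus counted at a far higher density than its target Odc1, whereas Oaz2 was 1.70-fold above Odc1, and Srm was at a far higher density than Sms. CDS windows with an exact copy elsewhere were 95.9% for Oaz1, 85.9% for Odc1, 72.9% for Oaz2, 100% for Sms and 20.8% for Srm. How reads from such windows were counted is not known, and its part in these gaps was not tested.

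Neighbours in this order were compared within libraries. Oaz1 was above Srm in 13 of 14 libraries, by 3.30-fold on average (log2 1.72 ± 0.86, SD). Srm exceeded Sat1 in 10 libraries (0.67 ± 0.77), Sat1 exceeded Azin1 in 12 (0.51 ± 0.46), and Azin1 exceeded Oaz2 in 9 (0.19 ± 0.57). Oaz2 was above Odc1 in 13 libraries (0.77 ± 0.79), and Odc1 above Paox in 13 (1.33 ± 0.64). Paox was above Amd1 in 9 libraries (0.62 ± 1.06), Amd1 above Smox in all 14 (1.83 ± 0.84), and Smox above Sms in 7 (0.12 ± 0.97). The mean difference was within 1 SD for Srm and Sat1, Azin1 and Oaz2, Oaz2 and Odc1, Paox and Amd1, and Smox and Sms. Counted on its shorter transcripts, Smox reached up to 0.41.

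**Figure D3:**
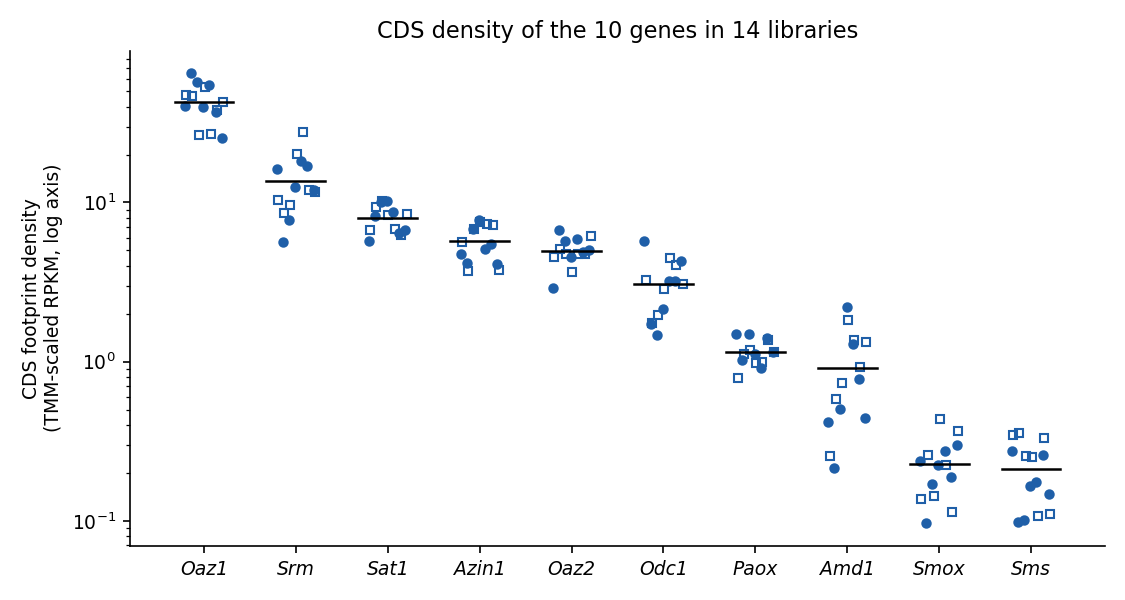
CDS density of each gene (vertical axis, TMM-scaled RPKM, log axis) in 14 libraries, spread from CT0 at the left to CT24 at the right within each gene, with filled circles for replicate 1, open squares for replicate 2 and a bar for the mean. Means fall from 42.9 for Oaz1 to 0.21 for Sms.

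Ratios of CDS densities set partners against each other, as a description without a test. Odc1 over Oaz1 ran from 0.0258 to 0.167 with a median of 0.0705, so the CDS density of Odc1 was below that of Oaz1 in every library. These densities are not amounts of protein, and Oaz1 reads before and after the shift are counted together. The ratio was 0.142 and 0.069 at CT0, 0.027 and 0.037 at CT4, 0.026 and 0.074 at CT8, 0.054 and 0.053 at CT12, 0.058 and 0.167 at CT16, 0.086 and 0.107 at CT20, and 0.167 and 0.072 at CT24. The lowest mean, 0.0320, was at CT4 and the highest, 0.120, at CT24. Azin1 over Oaz1 ran from 0.0639 to 0.272, lowest at CT4.

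Amd1 over Odc1 had the widest course of the 5 ratios. It was 0.073 and 0.078 at CT0, 0.124 and 0.334 at CT4, 0.342 and 0.374 at CT8, 1.03 and 0.638 at CT12, 0.406 and 0.307 at CT16, 0.243 and 0.227 at CT20, and 0.104 and 0.427 at CT24. The CT12 pair was above all other libraries, and its mean was 0.834 against 0.0756 at CT0. Sat1 over Srm, breakdown against synthesis, was highest at CT4 (1.46 and 1.10) and lowest at CT16 (0.474 and 0.245), a 3.55-fold range of means. Srm over Sms ran from 23.8 to 258, and the few Sms reads and the copies of its CDS windows elsewhere limit this ratio.

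The 5′UTR of Azin1 carried more reads than its CDS. Over the 14 libraries, 9351 reads fell upstream of the start codon and 6633 within the coding sequence, so 58.0% of its reads were in the 5′UTR. The count in the 5′UTR was the higher one in 13 of 14 libraries, all but CT16 replicate 2 with 468 against 496. On the log2 scale, reads of the 5′UTR over those of the CDS averaged 0.52 ± 0.36 (SD, n = 14), from -0.08 to 1.18, above 99.4% of 11390 genes, whose median was -4.85. Per nt, the 5′UTR had 2.54 times the density of the CDS. The second transcript of Azin1, whose 5′UTR is 592 nt in place of 753 and holds 3 of the 6 uORFs with both printed ones, was given 9179 reads in its 5′UTR. The longer 5′UTR, with 9351 reads, thus had little more than the shorter one. Reads in the part common to both cannot be assigned to either transcript, and none can be placed on a single uORF.

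Sat1, the acetyltransferase, had the next highest mean ratio. Its 5′UTR had 2404 reads against 3585 in the CDS, a mean log2 ratio of -0.62 ± 0.60 (SD), above 97.6% of genes. Per nt the 5′UTR was at 1.45 times the CDS. The 5′UTR exceeded the CDS in 2 libraries, CT0 replicate 2 and CT20 replicate 1. The annotation holds a uORF of 15 nt at chrX:155216271-155216285 and a further ATG whose frame runs into the CDS. The length of the 5′UTR is 281 nt in the annotation and 241 in the files, so whether the uORF lies in the counted region is not known. 54.3% of the windows in this 5′UTR have an exact copy elsewhere.
Sat1 uORF: ATGgtgccagccTGA

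Odc1 and Oaz2 had lower shares. Odc1 had 404 reads before the start codon and 3499 in its CDS, a mean log2 ratio of -3.15 ± 0.85 (SD) and 0.39 times the density of the CDS. Its 5′UTR reads ranged from 14 to 60 per library. Oaz2 had 317 against 2407, but its reads came unevenly: 3 libraries, CT12 replicate 1, CT16 replicate 2 and CT20 replicate 1, had 0, and CT0 replicate 2 had 69. Its mean log2 ratio was -3.87 ± 2.47 (SD).

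The 5′UTR of Amd1, which holds the printed uORF, had 7 reads in all, in 2 libraries, against 798 in the CDS. Its mean log2 ratio was -6.08 ± 1.41 (SD), higher than in 33.2% of genes, and was set by the pseudocount where no read was counted. Its uORF, of 21 nt, is shorter than a footprint, and 96.2% of the windows of this 5′UTR have an exact copy elsewhere. Oaz1 had 377 reads in the 5′UTR against 25351 in the CDS (-6.13 ± 0.56), Srm 149 against 10114 (-6.47 ± 1.56), Paox 7 against 1478, Smox 18 against 330 and Sms 41 against 195. Per nt, Sms was at 2.51 times the CDS, on these few reads, and the length of its 5′UTR is 93 nt in the files and 334 in the annotation.

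**Figure D4:**
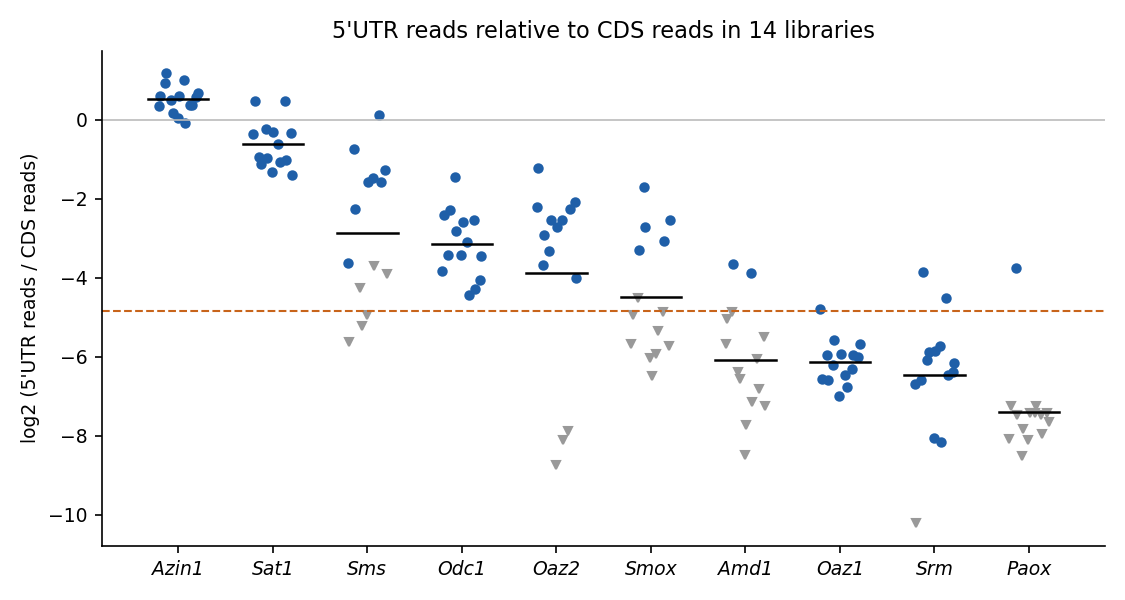
log2 of 5′UTR over CDS reads (vertical axis, pseudocount 0.5) of each gene in 14 libraries, spread from CT0 at the left to CT24 at the right. Blue circles have 5′UTR reads, grey triangles have none and sit where the pseudocount puts them, bars are means, the grey line is 0 and the dashed line is the median over 11390 genes, -4.85. Azin1 lies above 0 in 13 of 14 libraries.

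The share of reads in the 5′UTR did not pass a rhythm test for any gene. Of the 10 genes, 6 had enough reads in both regions, and their limma adjusted p ran from 0.809 to 0.959. Over all 7640 transcripts tested 0 passed (0%), and 377, or 4.93%, had an unadjusted p below 0.05, none of them a main transcript of the 6 genes. limma with a variance trend and an edgeR interaction of region and time called 0 as well, with lowest unadjusted p among the 6 genes of 0.127 and 0.152. The fitted change of the ratio from trough to peak was 0.43 on the log2 scale for Azin1, 0.47 for Sat1, 0.67 for Oaz1, 0.72 for Srm, 1.34 for Odc1 and 3.45 for Oaz2, where 3 libraries had no 5′UTR read.

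Reads of the 5′UTR alone were then set beside those of the CDS, a comparison chosen after seeing the data. For Azin1 the 5′UTR mean went from 9.95 ± 2.44 CPM (SD, n = 2) at CT0 to 13.2 ± 3.42 at CT12 and 8.20 ± 0.17 at CT24. The CDS mean went from 7.04 ± 0.89 to 10.4 ± 0.19 and 5.33 ± 0.34 at the same times. The fitted differences were 0.56 ± 0.15 (SE) for the 5′UTR and 0.79 ± 0.19 for CDS reads, with peaks at CT13.8 and CT13.4. Each of these fits took library sizes and TMM factors from the reads of its own region. The CPM values use those of total reads, so the scales differ. By edgeR the CDS passed (adjusted p = 0.0202) and the 5′UTR did not (0.555), where 1.48% of transcripts passed, and the difference between the regions is the ratio test above. For Sat1 the 5′UTR difference was 0.16 ± 0.36 (SE), with an edgeR adjusted p of 0.990.

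**Figure D5:**
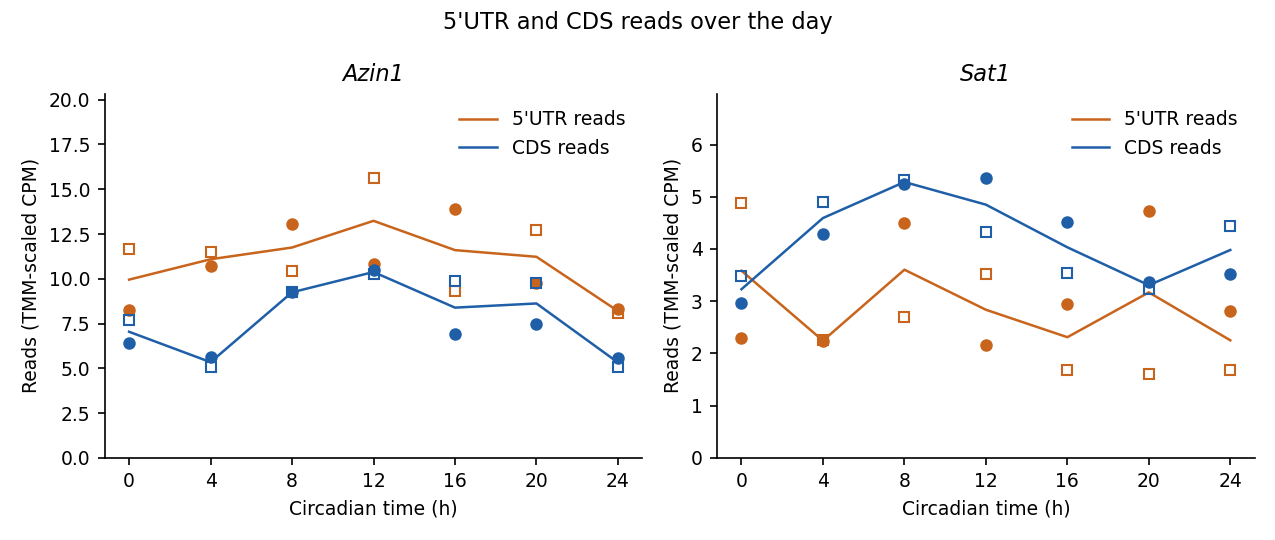
5′UTR reads (orange) and CDS reads (blue) of Azin1 and Sat1 (vertical axes, TMM-scaled CPM, from 0) against circadian time in h, with filled circles for replicate 1, open squares for replicate 2 and lines for the mean. In Azin1 the 5′UTR mean is above the CDS mean at all 7 times, and in Sat1 the CDS pair at CT8 (5.25 and 5.31) lies within a narrow range.

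Few reads fell in 3′UTRs. The share of 3′UTR reads in all reads of a transcript was 0.88% for Azin1, 0.80% for Paox, 0.77% for Oaz2, 0.76% for Odc1, 0.36% for Oaz1, 0.25% for Srm and Amd1 and 0.083% for Sat1, and the median over 11680 genes was 0.18%. The 0.76% of Odc1 came from 30 reads in 3 libraries, of which 20 were in CT12 replicate 1, and the share was 0.27% without that library. A single library also moved the share of Oaz2 (0.46% without CT12 replicate 2), Paox (0.44% without CT8 replicate 2), Amd1 (0.13% without CT0 replicate 1) and Sat1 (0.017% without CT16 replicate 2). Sms had 0 of 236 reads there, which allows a share of up to 1.27%, and the main transcript of Smox 0 of 348, which allows up to 0.862%. Another Smox transcript, with a 3′UTR of 480 nt in place of 303, was given 17 reads there, of 254 in all. These limits cover counting error only.

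Other genes of polyamine metabolism were taken from a list of 33. Of these, 28 had enough reads, and 4 passed the edgeR test, or 3 of 27 without Amd2, whose counts are those of Amd1, a share close to the 11.3% of all transcripts tested. Slc7a2, a carrier of arginine and ornithine, had the largest number of reads of the 3, a trough-to-peak difference of 1.58 ± 0.22 (SE) on the log2 scale, a peak at CT10.4 and an adjusted p of 3.20e-05. Mat2a, a methionine adenosyltransferase that makes S-adenosylmethionine, had 0.95 ± 0.17, a peak at CT15.0 and an adjusted p of 0.00214, which was 0.0775 with total count scaling and 0.0579 without CT16, and by JTK_CYCLE on total-count CPM the adjusted P was 0.173. Mtap, which salvages the methylthioadenosine that the synthases release, had 0.67 ± 0.15, a peak at CT23.4 and an adjusted p of 0.0176, which was 0.112 with time as a factor, 0.0878 without CT0 and 0.107 without CT12. The median difference of the tested list was 0.31, against 0.45 over all transcripts.

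The genes with the most similar course were sought by Pearson r of log2 CPM over the 14 libraries among 8145 genes with a mean of at least 100 reads, as a measure of likeness without a test. For Srm these were Txndc5 (r = 0.89), Chp1 (0.89) and Mybbp1a (0.89). C1qbp (0.88), Csrp2 (0.87) and Nolc1 (0.85) were nearest to Odc1. Lpin2 (0.88), Map1lc3b (0.87) and Pim3 (0.85) were nearest to Azin1, and Rapgef4 (0.93), Akr1c19 (0.91) and Man2a1 (0.89) to Amd1. The libraries share depth and scaling across genes, and these values are descriptions.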

How the data were processed

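Ribosome profiling was done on whole liver of 14 mice, 2 per time. By the study's methods the authors clipped adapters, removed rRNA reads, aligned the rest to mm10, kept exact matches and, for density profiles, used uniquely aligned reads within a set range of lengths, each assigned to an A site; the labels' processing notes name FastQC, Bowtie2 2.1.0.0 and SAMtools 0.1.19.0. Whether the filters for the profiles also apply to the deposited counts is not stated. The authors deposited raw read counts per transcript, split into CDS and both UTRs, with region lengths; 27836 of 28167 transcripts were matched to a symbol. Groups are the times in the sample names; the last pair is named CT24, and another label field gives CT00. Of 15 samples, 1, a repeat run of the second CT16 library, has no separate file here, and whether its reads are part of the counts used for that library is not stated.

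Counts of the 3 regions were added and tested with edgeR 4.0.16 (R 4.3.3; TMM, a mean of 10 counts or more, quasi-likelihood F test of cosine and sine terms of a 24 h period, Benjamini-Hochberg over all transcripts, threshold 0.05). Differences and phases are from a least-squares cosine on log2 CPM (prior count 1). 5′UTR over CDS counts on the log2 scale (pseudocount 0.5, mean of at least 10 in each region) were tested with limma 3.58.1. DESeq2 1.42.0 and JTK_CYCLE, written anew in Python 3.11.15 with lags every 2 h, were alternatives. Times at which the JTK_CYCLE reference curve has equal values were left tied, and other programs may order them, which changes their P values. These P values are adjusted over lags only. All were tested on simulated data. CDS density is RPKM on TMM-scaled library sizes. Windows of 28 nt were searched with BLAST against the genome. The rule for named genes was: the 10 genes, the 3 most similar genes for each gene past the threshold, and the 5 pathway genes with the lowest adjusted p among those past it (4 passed). The genes and lists were chosen with earlier results of these data known. With 2 mice per time, an SD rests on 2 values.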

Additional observations from a re-analysis of the deposited data

How the results depend on the processing

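Of the 10 genes, the number past the rhythm test was 4, and it was 3 to 5 under 13 of 16 other scalings, filters and tests. It was 2 with time as a factor (Srm and Odc1), 1 by JTK_CYCLE on total-count CPM (Srm) and 0 with 5′UTR reads only, an alternative chosen after seeing the data. Over all transcripts, 1373 of 17299 passed with time as a factor, 13.6% by JTK_CYCLE on total-count CPM and 1.48% with 5′UTR reads only, against 11.3% in the main fit. Leaving out 1 library gave 2 to 4, and leaving out both libraries of a time gave 1 without CT8, 2 without CT4 or CT12 and 3 to 4 otherwise. Over all transcripts, 1947 of 17299 passed in the main fit, and 1499 of 17309 to 2062 of 17336 without 1 library. Without CT8 1159 of 17256 passed, without CT4 1303 of 17303, without CT12 1059 of 17265, and without another time 1396 of 17285 to 1968 of 17307. Srm was past the test in 14 of 14 fits without 1 library and Odc1 in 14, Azin1 in 10 and Amd1 in 8. The count for the list of 33 pathway genes was 4, and it was 2 with time as a factor, 1 with 5′UTR reads only, 2 without CT0 and 2 without CT12; without 1 library it was 3 to 5. Mat2a had a phase of CT0.079 in 5′UTR reads only, with a fitted difference of 0.99 and an adjusted p of 0.999, against CT15.0 in total reads. The cause was not tested. The number of the 10 genes past the ratio test was 0 under 8 other settings and without any 1 library. Pseudocount 0.1 moved the mean ratio of Amd1 to -8.08, of Smox to -6.03 and of Paox to -9.56, since most of their libraries had no 5′UTR read. Replicate numbers are shared by all times, and same-numbered libraries deviated together with r from -0.14 to 0.48 over 21 pairs of times, above 0 in 17 and over 0.1 in 12, and 5 of 14 libraries were closest to their own number, so the numbers were not taken to pair the libraries. With the replicate block 4 of the 10 genes and 4 of the list passed, against 1916 of all 17299 transcripts, and 0 in the ratio. Halving CT16 replicate 2 left the count at 4, with 1942 of 17262 transcripts past the test. A setting that leaves 1 library at a time assumes that it varies like the others. Genes with few reads, Sms, Smox and Amd1, are limited by depth, and these 3 were not tested at a mean of 100 counts.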
